A study of Mus musculus with 29 samples.

Results

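A miRNA is cut from a folded precursor, the hairpin, whose 2 arms (5p and 3p) can each give a mature strand. Drosha and DGCR8 release the hairpin from the primary transcript, Dicer cuts off its loop, and an Argonaute protein keeps 1 arm while the other arm is usually lost. The mature strand pairs with mRNAs mainly through its seed, bases 2 to 8 from its 5′ end, so that entries sharing a seed can share targets. The count table lists hairpin entries and mature entries under the same kind of name, and here the hairpin entries that stood without a counted mature entry were examined. What a hairpin entry named for 1 arm counted is not given in the sources used here, and 95 of the 117 names examined carry an arm.

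The data were small RNA counts from gonadal white adipose tissue (gWAT) of female NZO/HIBomDife mice, an inbred obese strain in which some animals develop diabetes on a high-fat diet and others do not. There were 15 diabetes-prone (DP) and 14 diabetes-resistant (DR) mice, 1 library each, all of 1 strain and sex and all fed the high-fat diet. After 5 weeks on that diet the mice were classed by a risk score, and the tissue represents 10 weeks of age, before the DP mice become hyperglycaemic. No mouse carried a transgene or deletion, the DR mice were the comparison group, and the DP and DR classes are predictions from a score rather than observed outcomes. Whole tissue was used, so fewer cells of a type and less RNA per cell cannot be told apart.

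The table listed 5355 small RNA entries, among them 1526 hairpin and 1571 mature entries. A hairpin entry was selected on raw counts, when its mean raw count over the 29 libraries was above 10 and no mature entry of the same name had a mean above 10. Of 588 hairpin entries with a mean above 10, 117 met this rule and 471 had a counted mature entry. For 114 of the 117, a mature entry of the same name was listed but had a mean of 10 or less, and for 3 (miR-5129-5p, miR-6240 and miR-1194) no mature entry of that name was listed. These choices used mean counts over all mice and not the difference between DP and DR. The levels of hairpin and mature entries given here are thus descriptions, and only the DP against DR difference was tested. An entry with a mean near 10 can still have passed mainly through the group where it was higher. All 117 passed the filter on low counts, because the rule contains it.

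The border of the rule was not a natural gap. Just inside the hairpin threshold were miR-7042-5p (mean count 10.2), miR-666-5p (10.2) and miR-1945 (10.2), and just outside it were miR-7226-3p (9.79), miR-3082-5p (9.79) and miR-3470a (9.62). On the mature side, miR-1291 (mature mean 9.62), miR-130b-3p (9.41) and miR-6954-3p (9) were just inside. The entries let-7f-2-3p (mature mean 10.03), miR-216b-5p (10.2) and miR-3057-3p (10.2) were just outside, and let-7f-2-3p had a hairpin mean of 926. The number of chosen entries was 130 with both thresholds at 5 and 73 with both at 20.

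The counts of mature and hairpin entries together ranged from 20385384 to 23214934 per DP library and from 20599231 to 23187920 per DR library, and no 2 libraries held the same values. In the same fit, 3 of 5 leukocyte marker miRNAs were higher and 1 lower in DP (miR-150-5p, the most abundant of them, so that the summed level was 4258 to 6398 normalised counts per 1000000 in DP and 5352 to 8677 in DR). Endothelial markers were lower for 2 of 2, smooth muscle markers for 2 of 2, and adipocyte and brown fat markers for 3 of 4. The epithelial list had 2 of 6 higher and 1 lower, and the red cell (3 tested), liver (1), pancreas (2 of 3 tested) and muscle (3) lists had no member past the test. No defining marker was at 0 among those tested. Whether cell composition plays a part in the differences given here was not tested.

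**Figure D1:**
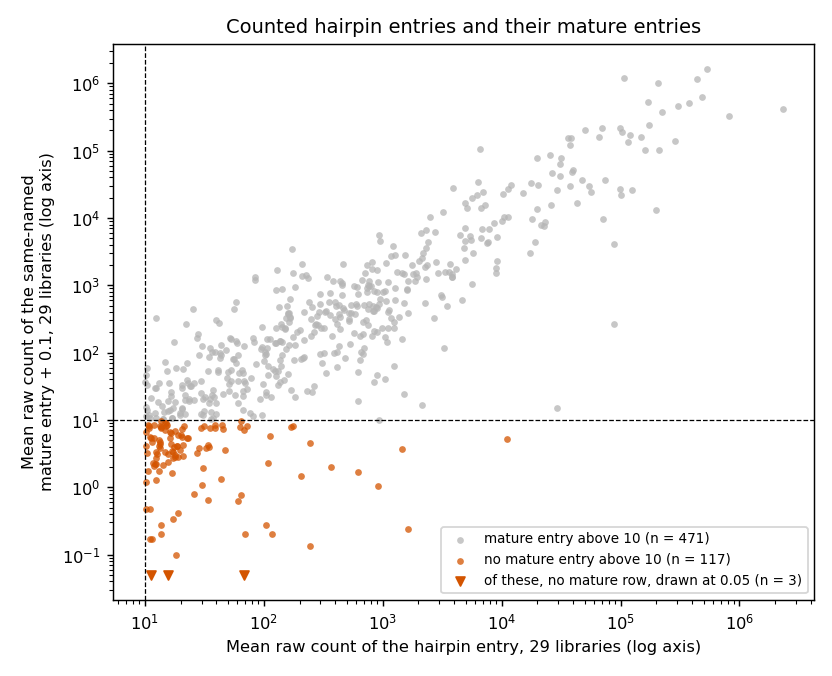
Mean raw count of each of the 588 counted hairpin entries (x axis, log) against the mean raw count of the mature entry of the same name plus 0.1 (y axis, log), over 29 libraries, with dashed lines at the thresholds. Orange points are the 117 entries without a counted mature entry and triangles are the 3 with no mature row; most lie at the low end, and a few reach hairpin means above 1000 with mature means under 10.

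Most of the chosen entries were rare. Their median mean count was 17.9, against 410 for hairpin entries with a counted mature entry, and their own mature entries had a median mean count of 3.81. The hairpin count was a median of 5.70 times the count of the same-named mature entry, against 1.10 times for the other hairpin entries. Only 15 of the 117 had a mean above 100, and 5 entries held 79.1% of all counts in the group. Names carried the 3p arm in 57, the 5p arm in 38 and no arm in 22. Among hairpin entries with a counted mature entry the corresponding numbers were 235, 218 and 18. Stems with a miRBase number of 1000 or above made up 50.4% of the chosen entries (59 of 117) and 14.9% of the others (70 of 471). The plot of hairpin against mature means shows the same contrast entry by entry.

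The group took a small part of each library. It held 0.0796% ± 0.0438 of mature and hairpin counts in DP mice and 0.1004% ± 0.0477 in DR mice (mean ± SD, n = 15 and 14). Nearly all of that spread came from miR-378d, and without it the shares were 0.0407% ± 0.00392 in DP and 0.0384% ± 0.00370 in DR.

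The mature sequences of the entries on which the comparison between DP and DR turned are given first, so that they can be compared with their nearest counted miRNAs. RefSeq holds a mature sequence (build GRCm38.p6) for 96 of the 117 names and a locus was found for 113. No sequence was found for miR-5107-5p, which was also higher in DP, so it is not shown. Capitals mark the seed, bases 2 to 8. The first 7 lines were higher in DP and the last 6 lower.
miR-5104: cUGUGCUAgugagguggcucagca
miR-142b: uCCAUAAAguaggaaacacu
miR-7091-3p: aGUGGCUUcugucgucucuag
miR-760-3p: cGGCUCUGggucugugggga
miR-130b-3p: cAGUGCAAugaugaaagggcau
miR-323-5p: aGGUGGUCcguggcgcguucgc
miR-1941-3p: cAUCUUAGcaguaucucccau
miR-6392-5p: uCUGGCGCccugguccugucagc
miR-5101: uUUGUUUGuuuugcugaugcag
miR-7075-3p: cAACCAUGucuucuuucccag
miR-3073b-5p: aUGGUCACaguggacaucaacc
miR-3099-3p: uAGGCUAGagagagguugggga
miR-215-5p: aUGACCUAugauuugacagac

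Among the 96 with a sequence, 14 shared their seed with a counted mature entry of another name (14.6%), against 120 of the 397 other hairpin entries with a sequence (30.2%). Of the sequences shown, only miR-130b-3p and miR-215-5p did so, with miR-130a-3p and miR-301a-3p in the first case and with miR-192-5p in the second. Members of a miRNA family are grouped by such a shared seed. The seeds of both families are visible in the sequences of their abundant relatives.
miR-130a-3p: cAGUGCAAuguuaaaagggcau
miR-192-5p: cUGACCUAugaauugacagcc

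The first question was which of the 117 entries differed between DP and DR gWAT. In an edgeR quasi-likelihood fit over all 1162 mature and hairpin entries with a mean above 10, 14 of the 117 passed an adjusted p of 0.05, 8 higher and 6 lower in DP. With library totals in place of TMM scaling the split was 12 higher and 4 lower, against 29.3% called over all entries. The lower entries miR-6392-5p and miR-7075-3p then lost their calls (adjusted p = 0.127 and 0.0854), and miR-466k, miR-493-3p, miR-494-5p and miR-6983-3p were called higher. Over all entries 25.9% passed (301 of 1162), with 14.0% higher and 11.9% lower. The share among the chosen entries was 11.97%, and hairpin entries with a counted mature entry were called in 27.8% (131 of 471). With a mean count above 10 up to 20, 7 of 68 chosen entries passed (10.3%), against 10.5% of all entries and 13.5% of the other hairpin entries. Above 20 up to 50, 3 of 26 passed (11.5%), against 11.6% and 8.77%. Above 50, 4 of 23 passed (17.4%), against 32.8% and 32.1%. Without adjustment, 21 of the 117 had a p under 0.05 (17.9%), against 37.6% of all entries. The median log2 fold change, DP over DR, was 0.05 over the 117 entries, 0.01 over the other hairpin entries and 0.02 over all entries. No entry of the 117 had DP and DR values that did not overlap. The corresponding number over all entries is not given here, so this is not a trait of the group.

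**Figure D2:**
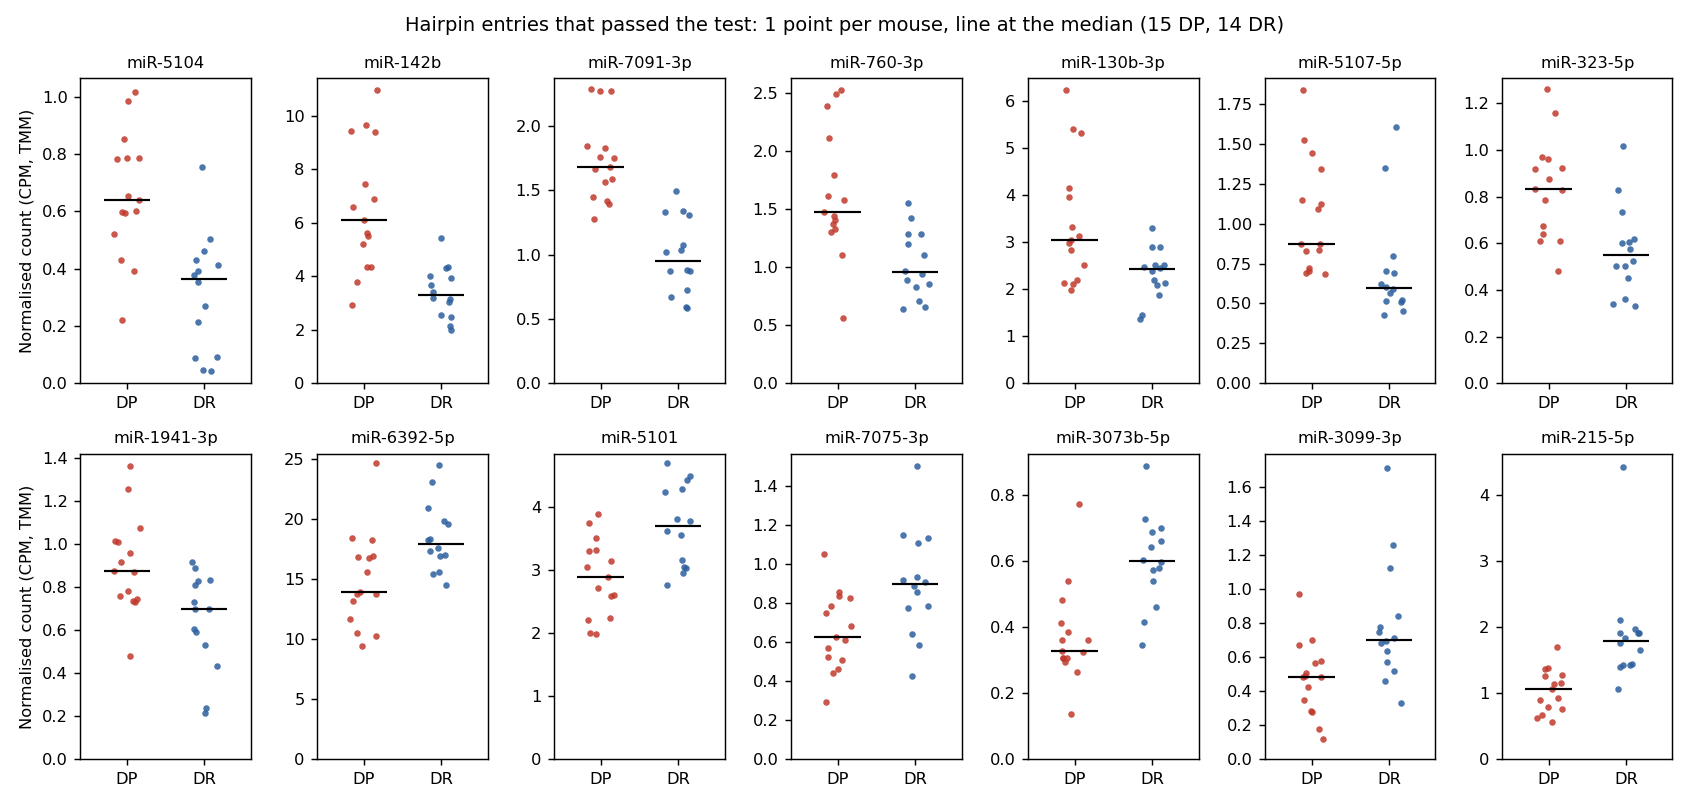
Normalised count (counts per 1000000 with TMM scaling, linear axis from 0) of the 14 hairpin entries that passed the test, 1 point per mouse, DP in red (n = 15) and DR in blue (n = 14), with a line at the median. The top row and the first panel of the bottom row are higher in DP and the remaining 6 are lower; the 2 groups overlap in all 14 panels.

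The miR-142b hairpin entry rose in DP. This entry lies at chr11:87756841-87756955 on the minus strand (GRCm38), on the opposite strand of the miR-142a gene, whose mature strands are made by blood cells and are used as leukocyte markers. Normalised counts (counts per 1000000, CPM) had a lowest, median and highest value of 2.92, 6.11 and 10.96 in DP and of 1.98, 3.30 and 5.42 in DR. In 14 of 15 DP mice the value was above the DR median and in 10 it was above every DR mouse, yet the groups overlapped. The log2 fold change was 0.94 (SE 0.18, edgeR adjusted p = 0.000131). The miR-142b mature entry had at most 14 counts in any library.

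The mature sequence of miR-142b is the complement of miR-142a-3p over its full length, and the capitals mark the bases that pair between them.
miR-142b: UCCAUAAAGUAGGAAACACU
miR-142a-3p: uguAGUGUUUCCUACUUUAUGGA
The miR-142a-3p hairpin entry was 220.9 ± 75.4 CPM in DP and 115.6 ± 28.98 CPM in DR (mean ± SD), with a log2 fold change of 0.93 (SE 0.16, edgeR adjusted p = 5.1e-05). Its mature entry had a log2 fold change of 0.86 (SE 0.16, adjusted p = 0.000152). Both entries of miR-142a-3p and the hairpin entry of miR-142b were thus higher in DP. Read in the same direction, the nearest sequence to miR-142b was miR-142a-5p, with 2 mismatches, although its gene is on the other strand. The hairpin entry of miR-142a-5p was higher by 0.62 (SE 0.14, edgeR adjusted p = 0.00139), and its mature entry by 0.58 (SE 0.21, adjusted p = 0.0385). The entry of miR-142b held a mean of 113 counts per library and the hairpin entry of miR-142a-3p a mean of 3825. Whether strand was used in the counting is not given in the sources used here, and the part of misassigned reads in the miR-142b value was not tested.

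The largest log2 fold change belonged to miR-5104, at chr10:7836381-7836474 on the plus strand, in an intron of Zc3h12d, a gene of the CCCH zinc finger family. Its lowest, median and highest CPM were 0.220, 0.640 and 1.02 in DP and 0.0425, 0.365 and 0.755 in DR. These CPM stand for 5 to 22 raw counts in DP and 1 to 17 in DR, and the groups overlapped in a middle range. The log2 fold change was 1.04 (SE 0.28, edgeR adjusted p = 0.00604).

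The miR-7091-3p hairpin entry gave the smallest adjusted p. It lies at chrX:74274027-74274105 on the minus strand, in an intron of Dnase1l1, which encodes a DNase I-like enzyme. Values ran from 1.27 over 1.68 to 2.28 CPM in DP (lowest, median, highest) and from 0.584 over 0.950 to 1.49 CPM in DR. All 15 DP mice were above the DR median and 11 were above every DR mouse. The log2 fold change was 0.81 (SE 0.13, edgeR adjusted p = 2.96e-05), and the mature entry had at most 5 counts in any library.

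Next came miR-760-3p, at chr3:122293585-122293703 on the minus strand in an exon of the non-coding transcript Gm17494. Its CPM were 0.560, 1.48 and 2.53 in DP and 0.638, 0.956 and 1.55 in DR (lowest, median, highest). In 14 of 15 DP mice it was above the DR median, while the lowest mouse of all was also a DP mouse. It rose by 0.67 on the log2 scale (SE 0.17, edgeR adjusted p = 0.00364).

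The miR-130 family is best known in fat cells for restraining PPARγ, the master regulator of adipocyte formation. The miR-130b-3p hairpin entry lies at chr16:17124061-17124142 on the minus strand in an intron of 2610318N02Rik, and had 1.99, 3.05 and 6.24 CPM in DP and 1.37, 2.42 and 3.30 CPM in DR. The upper values stood out in DP, where 6 mice exceeded every DR mouse, while the lower values of both groups overlapped. The hairpin entry rose by 0.56 on the log2 scale (SE 0.17, edgeR adjusted p = 0.0118). The mature entry of miR-130b-3p itself had a mean count of 11.2 in DP, above the threshold of 10, and of 7.5 in DR. With its mean over all mice under 10, it was not tested. The mature entry of the other arm, miR-130b-5p, rose as well, by 0.65 (SE 0.10, adjusted p = 1.5e-05). In contrast, the hairpin entry of its relative miR-130a-3p, which has the same seed and 2 mismatches to it, was lower in DP (log2 fold change -0.43, adjusted p = 0.000125).

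Further entries were higher in DP with smaller changes. The miR-323-5p hairpin entry lies at chr12:109712508-109712593 in the imprinted Dlk1-Dio3 region, where miRNAs are made from the maternal chromosome. It had 0.480, 0.832 and 1.26 CPM in DP and 0.330, 0.551 and 1.02 CPM in DR, with a log2 fold change of 0.55 (SE 0.16, edgeR adjusted p = 0.00849). The mature entry of its other arm, miR-323-3p, had a log2 fold change of 0.22 and did not pass (adjusted p = 0.116). The miR-5107-5p hairpin entry overlaps a coding exon of Cd74, the invariant chain of antigen presentation by MHC class II, at chr18:60812076-60812163. Its CPM were 0.687, 0.873 and 1.84 in DP and 0.425, 0.597 and 1.61 in DR, and although all 15 DP mice were above the DR median, only 1 exceeded every DR mouse (log2 fold change 0.55, SE 0.20, edgeR adjusted p = 0.0362). The miR-1941-3p hairpin entry lies at chr15:101369352-101369434 in an intron of the non-coding gene Gm35853. It had 0.480, 0.877 and 1.36 CPM in DP and 0.213, 0.700 and 0.919 CPM in DR (log2 fold change 0.49, SE 0.18, edgeR adjusted p = 0.0385). The calls of miR-5107-5p and miR-1941-3p were lost without 15 (5 DP, 10 DR) and 13 (7 DP, 6 DR) of the 29 libraries, each left out in turn, with adjusted p up to 0.068 and 0.0684.

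Of the 6 lower entries, miR-215-5p changed most. It lies at chr1:185313581-185313692 on the plus strand, in an exon of the non-coding gene 2010103J01Rik and opposite an intron of Iars2. Its lowest, median and highest CPM were 0.567, 1.06 and 1.69 in DP and 1.06, 1.79 and 4.43 in DR. No DP mouse reached the DR median, and 8 DP mice were below every DR mouse. The entry fell by 0.85 on the log2 scale (SE 0.18, edgeR adjusted p = 0.000451). The miR-215-5p mature entry had at most 22 counts in any library.

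The miR-3099-3p hairpin entry lies at chr7:6803587-6803670 in an intron of Usp29, a paternally expressed imprinted gene next to Peg3. It had 0.120, 0.483 and 0.969 CPM in DP and 0.330, 0.701 and 1.72 CPM in DR. In 14 of 15 DP mice it was below the DR median (log2 fold change -0.74, SE 0.24, edgeR adjusted p = 0.0202). The miR-3073b-5p hairpin entry lies on the opposite strand of the miR-3073a gene, at chr12:112109250-112109309, inside an intron of Aspg on the other strand. It had 0.137, 0.327 and 0.772 CPM in DP and 0.345, 0.600 and 0.886 CPM in DR. Here 8 DP mice were below every DR mouse, and 1 DP mouse lay above the DR median (log2 fold change -0.68, SE 0.17, edgeR adjusted p = 0.00231).

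The remaining lower entries had host genes of known function. The miR-6392-5p hairpin entry lies at chr15:84168270-84168377 in an intron of Pnpla3, a lipid droplet lipase and acyltransferase gene of liver and fat. It was the most abundant of the 14, with 9.39, 13.9 and 24.7 CPM in DP and 14.54, 17.97 and 24.5 CPM in DR, and its mature entry had at most 7 counts in a library. Most DP mice lay below the DR median (12 of 15), but the highest value of all was a DP mouse (log2 fold change -0.31, SE 0.11, edgeR adjusted p = 0.0428). The miR-5101 hairpin entry overlaps a coding exon of Syne2, which links the nuclear envelope to the cytoskeleton, at chr12:75909103-75909185. It had 1.97, 2.88 and 3.88 CPM in DP and 2.75, 3.69 and 4.70 CPM in DR, with 7 DP mice below every DR mouse (log2 fold change -0.36, SE 0.11, edgeR adjusted p = 0.0106). The miR-7075-3p hairpin entry lies at chr8:107096025-107096106 in an intron of Terf2, a telomere-binding protein gene, with 0.294, 0.624 and 1.05 CPM in DP and 0.425, 0.896 and 1.501 CPM in DR (log2 fold change -0.45, SE 0.17, edgeR adjusted p = 0.0408). The calls of miR-6392-5p and miR-7075-3p were lost without 15 (8 DP, 7 DR) and 13 (7 DP, 6 DR) of the 29 libraries, with adjusted p up to 0.0709 and 0.0782, and both were lost with library totals. In the edgeR exact test miR-6392-5p was also lost. The mRNA of these host genes was not analysed here.

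The library numbers in the sample titles split unevenly between the groups, with 10 DP and 6 DR mice below 200 and 5 DP and 8 DR mice at 200 or above. All 14 entries had the same direction in both sets. The test called 8 of the 117 (5 higher, 3 lower) in the lower-numbered set, where 25.9% of all entries were called. Of these 8, 6 were among the 14 (miR-142b, miR-323-5p, miR-5107-5p and miR-7091-3p higher, miR-215-5p and miR-3099-3p lower), and miR-493-3p (higher) and miR-6946-3p (lower) were not. In the higher-numbered set edgeR called 0 and gave 13 with an unadjusted p under 0.05, and 0.344% of all entries were called. With the set as a term in the fit, 15 were called (9 higher, 6 lower), against 29.3% of all entries. In that fit miR-7075-3p lost its call (adjusted p = 0.0605), while miR-493-3p was called higher and miR-7b-5p lower.

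The most abundant entries of the group did not pass the test, except miR-6392-5p. The highest mean count, 11046, belonged to miR-378d (chr10:126710282-126710391, minus strand), a sequence relative of the miR-378 that is made from a Ppargc1b intron. Next were let-7j with a mean count of 1631, let-7f-1-3p with 1445, miR-504-5p with 918 and let-7b-3p with 623. Their log2 fold changes lay between -0.75 (miR-378d, SE 1.03, edgeR adjusted p = 0.628) and 0.04 (let-7j, SE 0.08, adjusted p = 0.712). The miR-504-5p hairpin entry is in an intron of Fgf13, and its median was 44.9 CPM in DP and 45.0 CPM in DR. The entry miR-5113, in an untranslated or non-coding exon of Tnrc6b (an Argonaute partner in silencing), and the entry miR-3968 had means of 247 and 243 and log2 fold changes of -0.17 and -0.25 (adjusted p = 0.438 and 0.402).

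The let-7j hairpin entry was even between the groups, with 48.9, 73.4 and 92.0 CPM in DP and 59.8, 68.8 and 92.3 CPM in DR (lowest, median, highest). Its mature entry had at most 1 count per library. The let-7 family is abundant in differentiated tissue and restrains growth-promoting mRNAs. The sequence of let-7j differs from that of the abundant let-7i-5p at 1 base within their overlap, marked by the capital, which lies inside the seed.
let-7j: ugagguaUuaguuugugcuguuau
let-7i-5p: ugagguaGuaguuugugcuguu
The let-7i-5p hairpin entry had a mean count of 98571. A similar case was miR-3962, which differs from let-7g-5p at 1 base within their overlap when its first base is set 2 bases into let-7g-5p.
miR-3962: agguaguaguuuguacaUuu
let-7g-5p: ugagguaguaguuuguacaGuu

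In all, 16 of the 96 entries with a sequence had another counted hairpin entry of at most 2 mismatches (16.7%), against 77 of 397 among the other hairpin entries (19.4%). Here both sequences were read in the same direction, wherever their genes lie. An exact complement over the overlap to another counted hairpin entry was present for 7 of the 96 (7.29%) and for 11 of the 397 (2.77%). Counts of such near-identical entries are uncertain, because how reads that fit several precursors were assigned is not given in the sources used here. The differences within such pairs were not tested. The hairpin entries of miR-106a-5p and miR-17-5p differ by 1 base and had log2 fold changes of -0.39 (adjusted p = 0.186) and 0.24 (adjusted p = 0.00671). Those of miR-7b-5p and miR-7a-5p differ by 1 base and had -0.45 (adjusted p = 0.0602) and 0.40 (adjusted p = 0.00158). By contrast, miR-19a-3p and miR-19b-3p, which also differ by 1 base, had 0.32 (adjusted p = 0.143) and 0.28 (adjusted p = 0.000701).

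A few entries were present at a high level in some mice and nearly absent in others of the same group. The libraries were sorted by log2(count + 1) for each entry, and the largest step between neighbours that left at least 4 libraries on either side was taken, a measure chosen after the values were seen. A step above 2 was found in 3 of the 117 entries (miR-378d, miR-1306-5p and miR-467h) and in 7 of the 471 other hairpin entries. The miR-378d hairpin entry had 2.44 to 5.38 CPM in 13 libraries and 558.1 to 1261 CPM in the other 16, with nothing between. It was low in 8 DP and 5 DR mice and high in 7 DP and 9 DR mice. Both levels thus occurred in both groups, and the median was 5.38 CPM in DP and 893 CPM in DR because the step fell near the middle of each group. The hairpin entry of miR-378c, its nearest match with 2 mismatches, ranged from 30 to 2802 counts. The coefficient of variation (SD over mean) was 0.945 for miR-378d, 1.17 for miR-378c and 0.890 for their sum, so this sum was not steady.

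The miR-1306-5p hairpin entry, which overlaps a coding exon of Dgcr8 (chr16:18284239-18284317, minus strand), the partner of Drosha, had 0 to 12 counts in 13 libraries and 234 to 529 in the other 16. It was high in 10 DP and 6 DR mice, and its log2 fold change was 0.61 (SE 0.82, edgeR adjusted p = 0.624). The miR-467h hairpin entry (chr9:115381819-115381939) had 0 to 8 counts in 17 libraries and 109 to 185 in the other 12. It was high in 8 DP and 4 DR mice (log2 fold change 0.99, SE 0.84, edgeR adjusted p = 0.404). The mice with a high count were not the same for the 3 entries. Library 184, for example, had 21346 counts of miR-378d, 5 of miR-1306-5p and 123 of miR-467h, while library 185 had 58, 459 and 0.

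**Figure D3:**
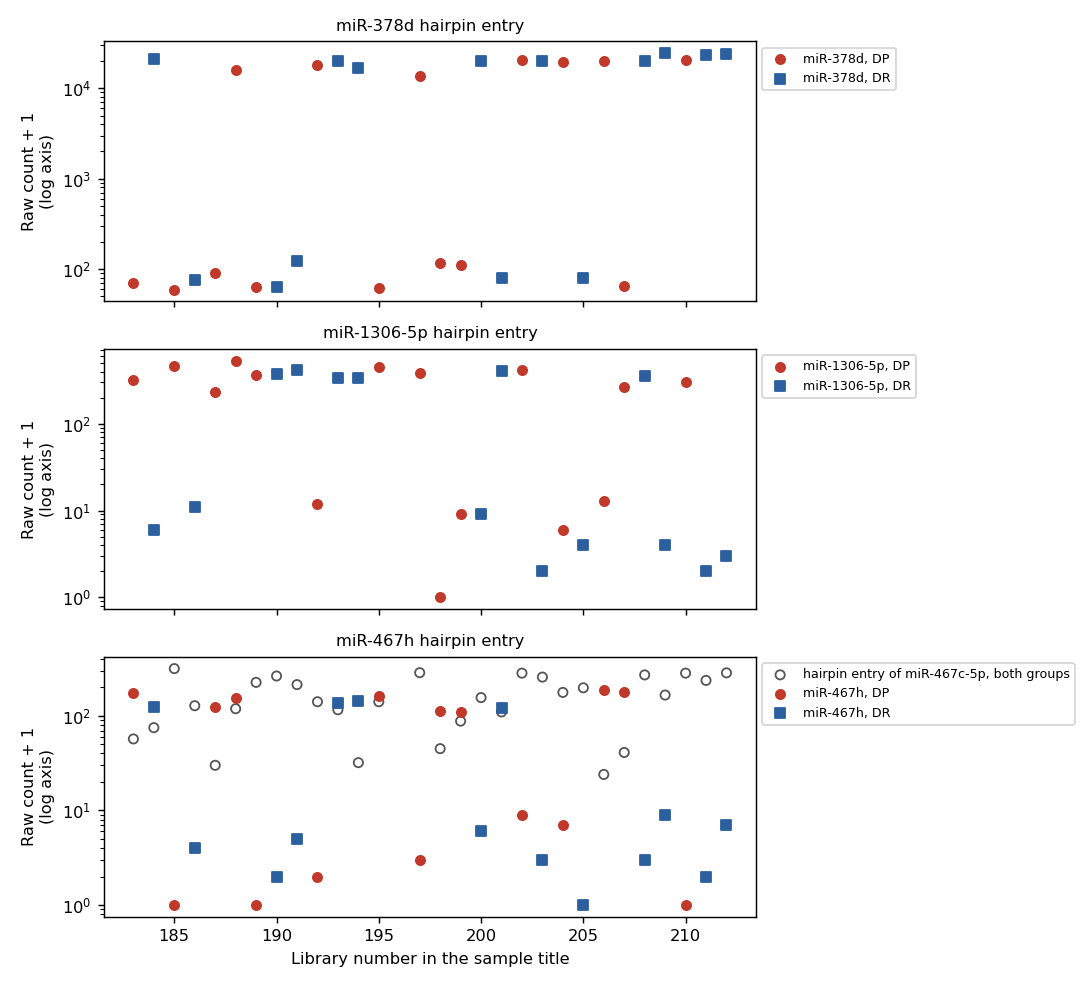
Raw counts plus 1 (log axis) of the hairpin entries of miR-378d, miR-1306-5p and miR-467h in each of the 29 libraries, by library number, with DP as red circles and DR as blue squares; open circles show the hairpin entry of miR-467c-5p. Each entry falls into a high and a low band, both groups appear in both bands, and the open circles are lowest in libraries where miR-467h is high.

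The hairpin entry of miR-467c-5p tended to be low where that of miR-467h was high. This entry, a member of the same Sfmbt2-type family, ranged from 23 to 315 counts. Its coefficient of variation over the 29 libraries was 0.578 and that of miR-467h was 1.18, but that of their sum was 0.223. The sum was 10.13 ± 2.297 CPM in DP and 10.11 ± 2.304 CPM in DR (mean ± SD). This pair was picked after its values were seen, and the sum was not tested.

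A step of the same kind, between 1 and 2 on the log2 scale, was seen for miR-219c-3p and miR-669m-5p. The miR-219c-3p hairpin entry had 0 to 6 counts in 13 libraries and 16 to 37 in the other 16. Its sequence and that of miR-219a-5p, also among the 117, are complements over 20 bases, marked in capitals.
miR-219c-3p: cgAGAAUUGCGUUUGGACAAUC
miR-219a-5p: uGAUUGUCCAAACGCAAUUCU
The entries varied with a coefficient of variation of 0.910 and 0.970, and their sum with 0.331. The sum was 1.28 ± 0.414 CPM in DP and 1.24 ± 0.432 CPM in DR, whereas the log2 fold changes of the separate entries were 0.80 (SE 0.62, adjusted p = 0.359) and -0.67 (SE 0.52, adjusted p = 0.358). In some mice nearly all of the pair's counts lay in miR-219c-3p, in others in miR-219a-5p, and in some they were divided. The group means of the sum differed by less than 1 SD.

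The complementary entries miR-3065-5p and miR-338-3p, made from the 2 strands of a locus on chromosome 11, showed a weaker form of this pattern.
miR-3065-5p: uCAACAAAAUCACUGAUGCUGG
miR-338-3p: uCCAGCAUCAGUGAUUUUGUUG
Here 21 bases are complementary. The coefficients of variation were 0.717 and 0.378, and that of the sum was 0.289. For miR-299b-3p and miR-299a-5p the coefficients were 0.304 and 0.213, and that of the sum was 0.186. A sum of 2 unrelated entries can also vary less than either entry. Whether counts moved between partners was not tested. For the other complementary pairs the sum varied about as much as the partner. The coefficients were 0.223 for miR-126b-5p, 0.135 for miR-126a-3p and 0.135 for their sum. They were 0.482 for miR-142b, 0.459 for miR-142a-3p and 0.459 for their sum. For miR-3071-5p, miR-136-3p and their sum they were 0.510, 0.233 and 0.239. None of the 3 entries with a step above 2 was among the 14 calls.

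**Figure D4:**
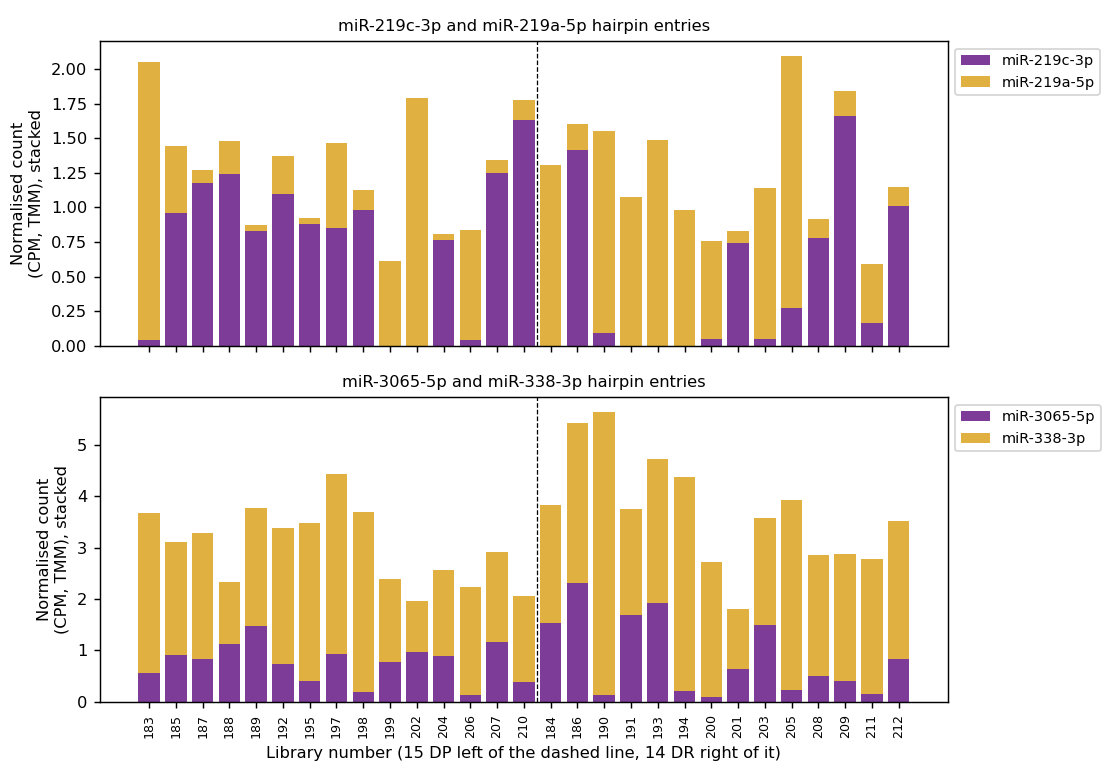
Normalised counts (CPM with TMM scaling, stacked bars from 0) of 2 complementary pairs of hairpin entries in each library, 15 DP libraries left of the dashed line and 14 DR libraries right of it. The share of miR-219c-3p (purple) and miR-219a-5p (yellow) changes from library to library in both groups while the total stays within a narrower range; miR-3065-5p and miR-338-3p show this less.

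The opposite arm of the stem was examined next, because for 42 of the 117 entries the mature strand of the other arm was counted. In 38 of these 42 the mature entry of the other arm had a higher mean count than the hairpin entry. The other arm passed the test for 8 of the 42, 4 higher and 4 lower in DP, against 25.9% called over all entries. The hairpin entry passed for 2, miR-130b-3p and miR-323-5p. Only for miR-130b did both pass, and in the same direction. For 7 stems the mature strand of the other arm passed and the hairpin entry did not. The miR-33-5p mature entry, whose gene lies in an intron of Srebf2, the activator of cholesterol synthesis, was higher in DP by 0.42 (SE 0.12, adjusted p = 0.0092), while the hairpin entry of miR-33-3p had a log2 fold change of -0.10 (SE 0.14, adjusted p = 0.632). The miR-196b-5p mature entry, from the Hoxa cluster, fell by 0.41 (SE 0.10, adjusted p = 0.00283), and the hairpin entry of miR-196b-3p had 0.05 (SE 0.18, adjusted p = 0.883). The miR-20a-5p mature entry, of the miR-17 to miR-92 cluster, rose by 0.23 (adjusted p = 0.0213), and the hairpin entry of miR-20a-3p also had 0.23, with a larger SE of 0.15 (adjusted p = 0.26). The difference between the arms was not tested. The sign was the same in 28 of the 42 stems.

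**Figure D5:**
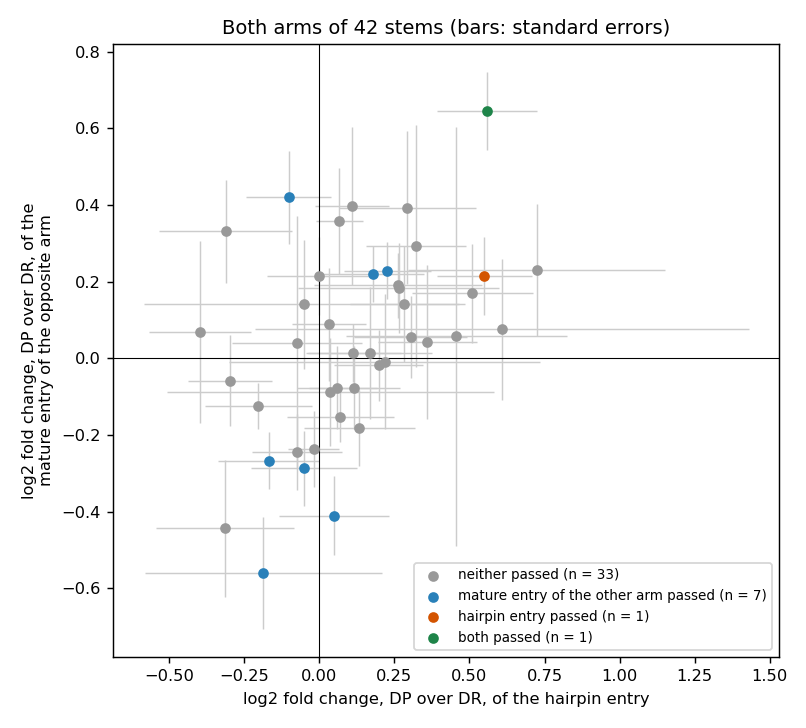
Log2 fold change, DP over DR, of the hairpin entry (x axis) against that of the mature entry of the opposite arm (y axis) for 42 stems, with standard errors as bars. Both passed for 1 stem (miR-130b, green), the hairpin entry alone for 1 (orange), the mature entry alone for 7 (blue) and neither for 33 (grey).

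By place, 49 of the 117 entries lay in an intron of a gene on the same strand (4 higher, 3 lower), 35 in an exon (2 higher, 2 lower), 11 opposite a gene only (1 higher, 1 lower) and 18 outside annotated genes (1 higher, 0 lower), and 4 had no locus matched. Of the exonic ones, 9 overlapped a coding exon. The opposite strand of another miRNA gene was the place of 8 entries (6.84%), against 29 of the 471 others (6.16%), with 1 higher (miR-142b) and 1 lower (miR-3073b-5p). Stems with a number of 1000 or above gave 4 higher and 5 lower of 59, and the older stems 4 higher and 1 lower of 58. Entries with an arm in their name gave 6 higher and 5 lower of 95, and those without gave 2 higher and 1 lower of 22. Where the other arm was not counted, 6 were higher and 6 lower of 75. Over all entries tested 25.9% were called, 14.0% higher and 11.9% lower. The shares called among the other hairpin entries of these classes are not given here, and differences between the classes were not tested.

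A list of stems of the imprinted Dlk1-Dio3 region, a cluster of maternally expressed miRNAs, held 9 of the entries. Of these 1 passed (miR-323-5p, higher) and 8 did not, against 25.9% called over all entries. Their median log2 fold change was 0.29, against 0.02 over all entries tested. Of the 9 values 8 were above 0, against 608 of the 1162 over all entries. The next entries were miR-493-3p (log2 fold change 0.51, SE 0.20, adjusted p = 0.0628) and miR-494-5p (0.36, SE 0.17, adjusted p = 0.108), and the lowest was miR-485-3p (adjusted p = 0.994). The entry miR-493-3p passed with library number as a term and when library totals replaced the TMM scaling. By position miR-299b-3p and miR-3071-5p also lie in this region, on the opposite strand, and are not on the list. Their log2 fold changes were 0.30 (SE 0.17, adjusted p = 0.182) and 0.26 (SE 0.33, adjusted p = 0.596).

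The stems miR-297, miR-466, miR-467 and miR-669, which belong to a large repeat-derived family centred on an intron of Sfmbt2, were represented by 10 entries, 6 of them within Sfmbt2. None of the 10 passed the test (0 higher, 0 lower), against 25.9% called over all entries. Their median log2 fold change was 0.25, against 0.02 over all entries. Of the 10 values 8 were above 0, against 608 of the 1162 over all entries. The nearest was miR-466k, with 1.39, 2.08 and 3.45 CPM in DP and 1.23, 1.74 and 2.37 CPM in DR (log2 fold change 0.29, SE 0.12, adjusted p = 0.0858). The 3 let-7 entries and the 1 entry of the Hox stems (miR-196b-3p) did not pass. The 3 entries with no mature row did not pass either, with log2 fold changes of -0.31 for miR-5129-5p, -0.55 for miR-6240 and 0.22 for miR-1194 (adjusted p = 0.325, 0.325 and 0.496).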

How the data were processed

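Small RNA libraries from total RNA of gWAT (miRNeasy extraction, BGI sequencing) were counted by the authors, who annotated mature and hairpin entries with miRDeep2. The deposited values are raw counts per entry. The submitters' processing notes name Bowtie2 and mm10. The handling of reads that fit several precursors and the use of strand are not given in the sources used here. All 29 count columns were used and 0 per-sample columns were left out. Mature and hairpin entries with a mean count above 10 (1162) were fitted together in edgeR 4.0.16 (R 4.3.3) with TMM scaling and the quasi-likelihood F-test, DP over DR, and p-values were adjusted by Benjamini and Hochberg over all 1162. CPM are counts per 1000000 of the summed mature and hairpin counts, scaled by TMM. DESeq2 1.42.0 and limma 3.58.1 were used as alternatives. After the main fit, the same procedure was run on counts simulated from its means and dispersions, with 200 changed entries. The outcome of that run is not given here. P-values set the difference between DP and DR against the spread between mice.

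Loci are from RefSeq and GENCODE on GRCm38, the same build as mm10. Sequences were compared without gaps, with a shift of up to 3 bases and an overlap of at least 17. The members and lists were chosen with earlier results of these data known. Named were the entries past the test, the 8 with the highest mean count, up to 4 per list with the smallest p, and those at the thresholds; others were named after their values were seen.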

Additional observations from a re-analysis of the deposited data

How the results depend on the processing

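The 14 calls (8 higher, 6 lower) stood against 4 when the filter was a mean count above 50, which left 23 of the entries. They stood against 8 in library numbers below 200 and 0 in library numbers of 200 and above. Without a refit, 7 of the 14 calls belonged to entries with a mean above 20. The number of calls ranged from 10 to 15 when each library was left out in turn (6 to 9 higher, 4 to 7 lower). Of the 14 calls, 10 were kept in every such fit. The calls lost were those of miR-6392-5p, miR-5107-5p, miR-1941-3p and miR-7075-3p. Library totals in place of TMM, and library sizes from all named small RNAs, each gave 12 higher and 4 lower calls and moved the median log2 fold change of the group from 0.05 to 0.12. The median lay between 0.01 and 0.06 when a library was left out and between -0.04 and 0.12 over all alternatives. Median-of-ratios scaling, the hairpin entries alone and robust estimation gave 14 calls each. The fits with limma-voom, with DESeq2 and with library number 200 as a term gave 15 each. The linear term gave 16, the exact test 13 and no filter 10. The share of all entries called is given above only for library totals and the library number sets. In the other fits, a shift over all entries cannot be told apart from a shift in the group. The number of entries was 73 at thresholds of 20. Without a refit, the 75 entries with no mature entry of either arm counted held 12 of the 14 calls. No paired analysis was possible because the labels give the groups no shared replicate numbers. Over the alternatives no call changed direction. Entries of 10 to 20 counts per library carried 7 of the 14 calls, and the median SE of a log2 fold change was 0.18 over the 117 entries, against 0.12 over the other hairpin entries.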

Other observations

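Entries outside the 14 calls that passed under an alternative were miR-493-3p, miR-466k, miR-494-5p, miR-6983-3p, miR-7b-5p and miR-6946-3p. The hairpin entry of miR-6983-3p lies in an intron of Csf1r, the receptor that sustains macrophages, and had a log2 fold change of 0.40 (adjusted p = 0.0683), with 0.515, 0.930 and 1.35 CPM in DP and 0.367, 0.711 and 1.25 CPM in DR (lowest, median, highest). It passed with library totals and with limma-voom. The hairpin entry of miR-6921-3p lies in an intron of Srebf1, a regulator of fatty acid synthesis, and had 1.71 CPM at the median in DP and 1.90 in DR (log2 fold change -0.36, adjusted p = 0.312).

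The hairpin entries of miR-3071-5p and miR-136-3p are complementary and lie on the strand of Rtl1 and its opposite. The hairpin entry of miR-3071-5p ran from 0.185 to 7.27 CPM in DP and from 0.132 to 4.94 CPM in DR, with a coefficient of variation of 0.510.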
